A study of Mus musculus with 6 samples.

Results

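The 10 genes described here encode the transcription factors of the MYC, MAX, MXD and MLX network: Myc, Mycn, Mycl, Max, Mxd1, Mxd3, Mxd4, Mxi1, Mnt and Mlx. They were chosen by name for their role and matched by gene symbol to the Ensembl identifiers of the deposited table, in which they are 10 of 55487 genes. All 10 were among the 15020 genes that were tested, those whose normalized count averaged 10 or more across the 6 libraries. Mycn reached that mean through its counts in the libraries labelled pIpC, its mean in the PBS libraries being below 10.

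MYC proteins are basic helix-loop-helix leucine zipper factors that bind DNA only as dimers with MAX, at E-box elements, and that raise the expression of genes for ribosome production, nucleotide synthesis and cell growth. The MXD proteins and MNT compete with MYC for MAX and for the same sites, and recruit the SIN3 and histone deacetylase co-repressors. MLX pairs with some of the MXD proteins, with MNT and with the nutrient-responsive MONDO factors. In the myeloid lineage MYC is high in proliferating progenitors and MXD1 is a known product of maturing granulocytes.

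The study asked what loss of BRD9, a bromodomain subunit of a SWI/SNF chromatin remodelling complex, does to established leukemia. Donor cells of the genotype CD45.2(+) Mx1-Cre Brd9fl/fl on the C57BL/6 strain carried MLL-AF9 (MA9), a fusion oncogene of acute myeloid leukemia introduced by retrovirus, and 1000 leukemic bone marrow cells were transplanted into irradiated CD45.1(+) CD45.2(-) recipients. From the day after transplantation the recipients were injected with PBS, or with pIpC at 20 mg/kg, for 3 doses on alternate days, and GFP+ bone marrow cells of femora and tibiae were taken 10 days after injection. The floxed Brd9 alleles, Mx1-Cre and MLL-AF9 were thus shared by both groups, of 3 libraries each, and the study's methods give the recipients as 6 weeks old. The compound pIpC mimics viral double-stranded RNA and raises interferon, which turns on Cre from the Mx1 promoter, so that Cre acts in any interferon-responsive cell and an effect of pIpC itself cannot be told apart from that of the deletion. The labels do not say whether the replicates are separate recipients, and p-values therefore measure only the spread between these libraries.

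Sequence upstream of the members is shown because these factors bind E-boxes and their own genes can carry such elements. Promoter windows running from 250 bases before to 50 bases after the annotated start, taken from RefSeq on GRCm38.p6, were found for 9 of the 10 members, Myc being the member without an entry. The windows were searched for CACGTG, the canonical E-box, which reads the same on both strands, and it is printed in capitals. It lay in the windows of Max, Mlx, Mnt and Mxd4, 4 of 9 members (44.4%), against 8.09% of the 27025 genes with a window. Among tested genes with a window the share was 9.7% of those higher, 13.3% of those lower and 11.9% of those not called. The 4 windows that hold it follow, with that of Mxd1, the member with the largest change relative to its replicate spread, in which these letters were not found.
Max (chr12:76962199-76962498, - strand): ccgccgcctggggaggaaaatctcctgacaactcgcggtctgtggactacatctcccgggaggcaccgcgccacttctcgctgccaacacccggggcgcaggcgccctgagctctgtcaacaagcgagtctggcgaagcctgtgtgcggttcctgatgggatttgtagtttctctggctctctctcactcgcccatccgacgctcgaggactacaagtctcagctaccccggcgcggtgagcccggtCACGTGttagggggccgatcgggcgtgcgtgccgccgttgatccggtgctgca
Mlx (chr11:101087040-101087339, + strand): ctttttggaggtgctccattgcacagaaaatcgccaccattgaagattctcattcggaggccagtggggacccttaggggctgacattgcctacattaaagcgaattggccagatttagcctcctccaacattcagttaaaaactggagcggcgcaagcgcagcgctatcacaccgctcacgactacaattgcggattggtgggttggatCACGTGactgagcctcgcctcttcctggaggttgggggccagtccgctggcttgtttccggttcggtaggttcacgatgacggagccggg
Mnt (chr11:74830674-74830973, + strand): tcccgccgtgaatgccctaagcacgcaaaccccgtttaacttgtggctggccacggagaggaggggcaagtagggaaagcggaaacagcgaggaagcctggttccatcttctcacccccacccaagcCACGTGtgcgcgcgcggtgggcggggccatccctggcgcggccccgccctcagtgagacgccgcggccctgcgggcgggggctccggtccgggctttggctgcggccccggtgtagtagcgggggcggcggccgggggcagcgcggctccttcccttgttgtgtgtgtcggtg
Mxd4 (chr5:34187661-34187960, - strand): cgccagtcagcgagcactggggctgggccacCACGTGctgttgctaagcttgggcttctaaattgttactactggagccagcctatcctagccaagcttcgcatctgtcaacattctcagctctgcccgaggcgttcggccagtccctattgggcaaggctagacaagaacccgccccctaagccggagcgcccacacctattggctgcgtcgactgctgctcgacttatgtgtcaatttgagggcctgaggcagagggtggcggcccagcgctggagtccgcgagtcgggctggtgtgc
Mxd1 (chr6:86669110-86669409, - strand): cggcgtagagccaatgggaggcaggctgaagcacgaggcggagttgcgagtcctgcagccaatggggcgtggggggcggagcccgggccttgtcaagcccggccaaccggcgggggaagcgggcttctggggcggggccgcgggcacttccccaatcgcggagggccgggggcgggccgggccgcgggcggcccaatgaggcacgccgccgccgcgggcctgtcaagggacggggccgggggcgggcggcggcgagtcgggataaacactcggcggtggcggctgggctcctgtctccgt
In Max the element began 3 bases before the annotated start, and in Mlx it began 40 bases before it. In Mnt the distance was 123 bases and in Mxd4 it was 219 bases. The variant CACGCG, searched on both strands and with no overlap with CACGTG, occurred in the window of Mycl alone among the members (11.1%), against 10.5% of all genes with a window. Among tested genes with a window it was in 15.8% of those higher, 20.6% of those lower and 20.3% of those not called. These matches describe the letters in the windows and do not show binding.

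Brd9, the gene targeted by the recombination, is given first as a check of the labels. PBS replicates 1 to 3 had normalized counts of 1926.8, 1946.4 and 1631.9, and the libraries labelled pIpC had 2036, 2263 and 2011.4, so that each of the latter exceeded each PBS library (log2 fold change 0.20 ± 0.13 SE, adjusted p = 0.259 from limma; exact 2-sided permutation p = 0.1, the smallest that 3 against 3 allows). Without PBS replicate 3 the log2 fold change was 0.12 and did not pass either (adjusted p = 0.201 from limma). The floxed segment is only part of the transcript, and a whole-gene count is a weak measure of its loss. Brd9 was not lower under the pIpC label, however, and groups are named by label only. Reads on genes ranged from 19277439 to 22378154 in PBS and from 22348517 to 23586722 in the libraries labelled pIpC. PBS replicate 3 stood apart from the other 2 PBS libraries, with a chi-square statistic per gene of 208 and 181 against them where those 2 differed by 6.66, and calls of the members and lists that turn on it are given with and without it.

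Marker genes of several cell types also moved with the label. The 10 neutrophil markers were all higher in the libraries labelled pIpC, their summed normalized count being 16305 to 36512 in PBS and 1906396 to 1975567 in pIpC. Of 5 leukemia and progenitor markers, 4 were lower, the exception being Kit (log2 fold change -0.46), and their sum fell from between 19836 and 23391 to between 6602 and 7035. Kit and Cd34, with means of 4362 and 2008 in pIpC, held most of the pIpC sum. The median log2 fold change of the list was -4.005. Without PBS replicate 3, all 5 passed as lower. The 9 erythroid markers were all higher (20.8 to 37.3 against 3808 to 5733), with Slc4a1 among those at 0 in every PBS library. All 8 B cell markers were higher (136 to 304 against 1284 to 2321), with Ms4a1 at 0 in every PBS library. Of 9 T and NK cell markers, the 5 tested were all higher (sum over the list 183 to 320 against 3927 to 4551), with Trac at 0 in every PBS library. Nkg7 made up most of that sum, at 161.8, 167.0 and 301.0 in PBS and 4311.6, 3701.6 and 4055.6 in pIpC. Most erythroid and B cell markers, and most T and NK markers tested, averaged under 10 in PBS. They were tested through their counts in the libraries labelled pIpC, which fixed their direction as higher. Among 8 monocyte and macrophage markers 5 were higher and 2 lower, with sums of 38658 to 38910 and 44313 to 47466. Ly6c2 held most of these sums, with means of 22949 in PBS and 30205 in pIpC. Within the list the log2 fold changes ran from -3.80 to 4.88. The part of these cell types in the changes described next was not tested, and in bulk RNA a change in the number of cells of a type cannot be told apart from a change in RNA per cell. The labels place all 6 libraries in a GFP+ population.

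**Figure D1:**
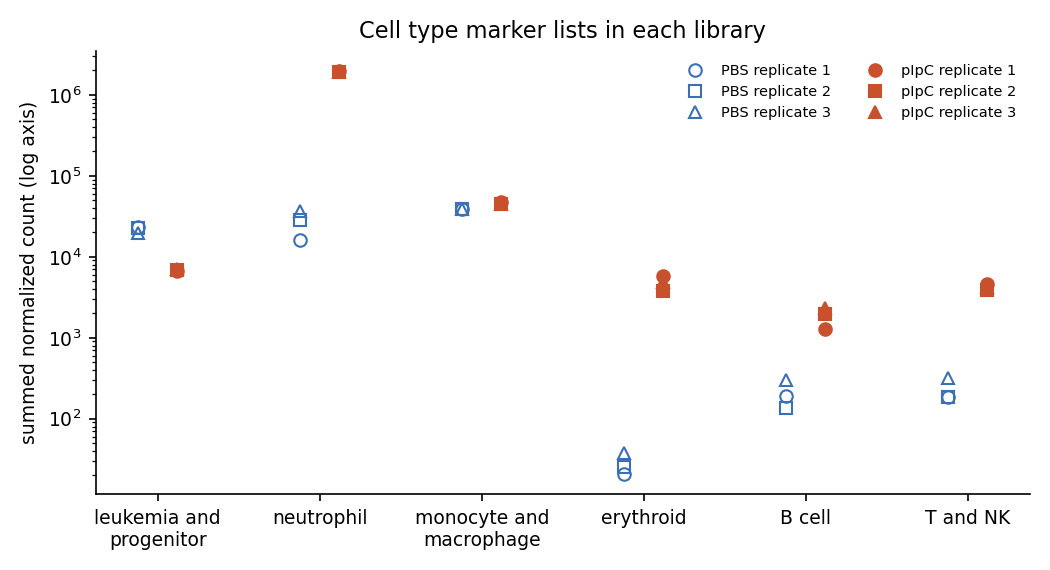
Summed normalized count (log axis) of the fixed marker lists of 6 cell types, with 1 point per library, open blue for PBS and filled orange for the libraries labelled pIpC. The neutrophil sums lie between 16305 and 36512 in PBS and between 1906396 and 1975567 in pIpC, and the leukemia and progenitor sums lie lower in pIpC.

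Of the 10 network members, 5 were higher in the libraries labelled pIpC (Mycn, Mycl, Max, Mxd1 and Mlx), 1 was lower (Myc) and 4 did not pass the threshold (Mxd3, Mxd4, Mxi1 and Mnt). Mycn was tested through its counts in the libraries labelled pIpC, which fixed its direction as higher. The threshold was a Benjamini-Hochberg adjusted p under 0.1 from limma on log2(normalized count + 1), a scale that understates the change of low genes. Across all genes tested 45.3% passed, 25.0% higher and 20.4% lower, so that passing was common in this comparison. The 3 values of each group did not overlap in 7 of the 10 members, against 56.8% of all genes tested. The median log2 fold change of the members, Mycn included, was 0.53 against 0.015 for all genes tested. Under quantile normalization the median over all genes lay at -0.12, and this turned the split of calls from 3750 higher and 3058 lower to 3244 higher and 4078 lower. Relative to that median Myc was at -0.81 and Max at 1.02.

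**Figure D2:**
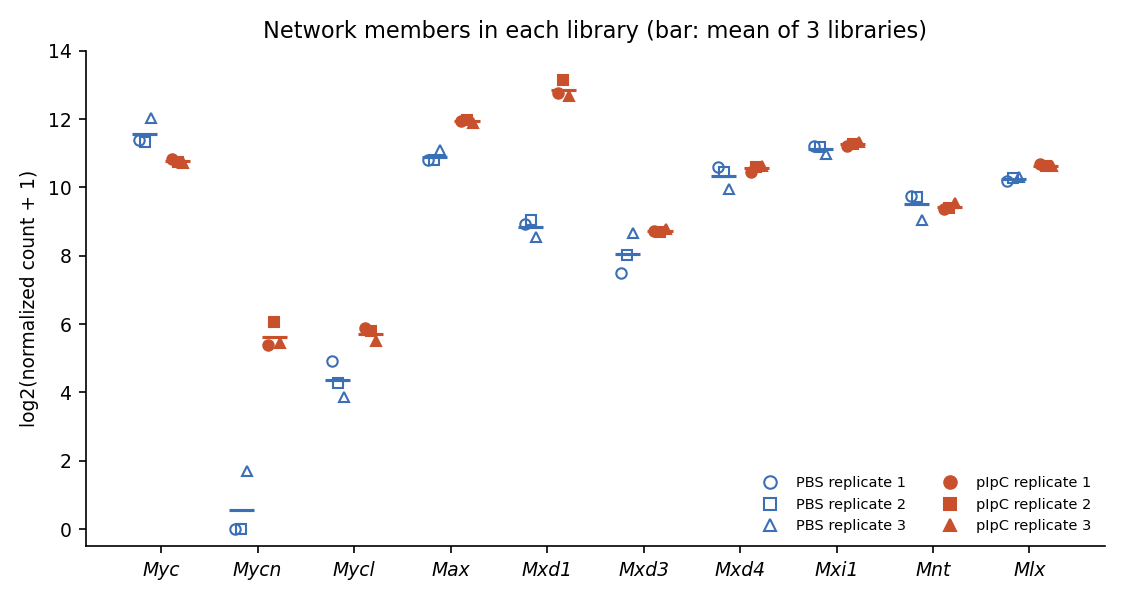
Normalized count of each network member on the log2(count + 1) scale in every library, with open blue symbols for PBS, filled orange symbols for the libraries labelled pIpC, symbol shape for the replicate number and a bar for the mean of 3 libraries. Mxd1 and Mycn show the widest separation, and Mxd4, Mxi1 and Mnt overlap between groups.

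Myc (ENSMUSG00000022346, chr15:61985391-61990374 on GRCm38) is the proto-oncogene of the family and an amplifier of growth genes in leukemia. PBS replicates 1 to 3 had normalized counts of 2666.6, 2582.1 and 4145.3, and the libraries labelled pIpC had 1834.4, 1726.6 and 1670. Every PBS library was above every pIpC library, and PBS replicate 3 was well above the other 2. The mean was 3131 ± 879 (SD, n = 3) against 1744 ± 83.5 (SD, n = 3), a log2 fold change of -0.81 (SE 0.20, adjusted p = 0.0193 from limma). Without PBS replicate 3 the fold change was -0.59 (adjusted p = 9.58e-05 from limma). Over the other settings tried, leaving out each other library included, it ranged down to -0.93 and passed the threshold in each.

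Mycn (ENSMUSG00000037169, chr12:12936093-12941914), which encodes the paralogue best known from neural tumours and is also used by blood stem and progenitor cells, was close to absent in PBS. It had 0, 0 and 2 reads in the PBS libraries and 41, 65 and 44 reads in those labelled pIpC. With the PBS libraries at or under the floor of 3 reads per library, Mycn was at least 16.6-fold higher in pIpC. It passed the threshold (adjusted p = 0.000673 from limma), but only its counts in pIpC brought it into the test. This fixed its direction as higher, and its call adds no support. The fitted log2 fold change of 5.07 depends on the pseudocount and is no bound.

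Mycl (ENSMUSG00000028654, chr4:122995652-123002485), the third paralogue and one that is used by dendritic cells, was also low. Its normalized count was 29.4, 18.2 and 13.6 in PBS and 57.9, 54.1 and 44.5 in the libraries labelled pIpC, with no overlap. The log2 fold change was 1.37 (SE 0.35, adjusted p = 0.0214 from limma). The direction of Myc was therefore opposite to that of Mycn and Mycl, but the latter remained minor: per kb of exon, Myc made up 99.3% to 99.7% of the summed level of the 3 MYC genes in PBS and 95.0% to 96.3% in pIpC.

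Max (ENSMUSG00000059436, chr12:76937269-76962201) encodes the partner that MYC needs to bind DNA and that the MXD proteins and MNT share with it. Its normalized count was 1800.5, 1781.5 and 2177.3 in PBS and 3918.4, 4019.3 and 3810 in the libraries labelled pIpC. The groups were far apart relative to the spread within each, at 1920 ± 223 (SD, n = 3) and 3916 ± 105 (SD, n = 3). This was a 2.04-fold rise, or 1.03 on the log2 scale (SE 0.13, adjusted p = 0.000914 from limma), and it ranged from 0.90 to 1.13 over all alternatives.

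Mxd1 (ENSMUSG00000001156, chr6:86647042-86669161), also known as MAD1, encodes a MAX partner that opposes MYC and accumulates when myeloid cells leave the cell cycle. The normalized count was 481.9, 530.4 and 374.6 in PBS and 6963.5, 9071.6 and 6540.8 in the libraries labelled pIpC. All 3 of the latter were more than 10 times as high as any PBS library. The mean rose 16.3-fold, from 462 ± 79.7 to 7525 ± 1356 (SD, n = 3 each), with a log2 fold change of 4.02 (SE 0.19, adjusted p = 2.6e-05 from limma) and a range from 3.86 to 4.13 over all alternatives. Counted with its sign, this log2 fold change stood at the 95.0th percentile of all genes tested, and 747 genes rose more. The neutrophil marker sum rose with Mxd1 between the groups, and a link between them was not tested.

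The other MXD genes did not pass the threshold. Mxd3 (chr13:55325168-55329823), whose product is expressed in proliferating cells, had 179.1, 257.1 and 408.5 in PBS and 420.2, 410.7 and 442.9 in the libraries labelled pIpC. The groups were separate by a narrow margin, PBS replicate 3 lying next to the lowest pIpC library. The log2 fold change was 0.67 (SE 0.29, adjusted p = 0.120 from limma) and did not pass, while without PBS replicate 3 it was 0.98 and passed (adjusted p = 0.000657 from limma).

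Mxd4 (chr5:34173883-34187720), a repressor found in differentiated cells, overlapped between groups at 1549.6, 1385.7 and 984.6 in PBS and 1395.3, 1550.9 and 1576.2 in pIpC. Its log2 fold change was 0.23 (SE 0.19, adjusted p = 0.373 from limma). Mxi1 (chr19:53310518-53375810), also called MXD2 and a MYC antagonist, had 2373.3, 2319.9 and 2030.2 in PBS and 2365.4, 2490.9 and 2582.9 in pIpC. The groups overlapped in its case too (log2 fold change 0.15, SE 0.12, adjusted p = 0.362 from limma).

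Mnt (chr11:74830920-74845725) encodes a broadly expressed MAX partner that restrains MYC in proliferating and resting cells alike. Its normalized count was 862.6, 843.2 and 528.5 in PBS and 653.7, 677.4 and 748.5 in the libraries labelled pIpC, so that the pIpC values lay inside the PBS range. The log2 fold change was -0.07 (SE 0.21, adjusted p = 0.815 from limma). Without PBS replicate 3, the lowest of the 6 libraries, Mnt passed as lower at -0.30 (adjusted p = 0.0165 from limma), and without PBS replicate 1 or 2 the sign turned (0.05 and 0.04).

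Mlx (ENSMUSG00000017801, chr11:101087277-101092207), which links the network to glucose sensing through its MONDO partners, rose in a narrow range. Its normalized count was 1167.2, 1236.9 and 1268.6 in PBS and 1631.8, 1576.5 and 1564.6 in the libraries labelled pIpC. The groups did not overlap, at a 1.30-fold difference, or 0.38 on the log2 scale (SE 0.11, adjusted p = 0.0325 from limma). The call was lost without any of the 3 pIpC libraries (adjusted p from 0.111 to 0.118), under quantile normalization (0.123) and with a replicate block (0.124), all from limma with Benjamini-Hochberg adjustment. Mlx also shares 385 exon bases (19.3% of its exons) with Psmc3ip on the opposite strand, and reads in them cannot be assigned without strand. Psmc3ip itself went from a mean of 616 in PBS to 377 in pIpC. Mxd3 shares 105 exon bases (4.43%) with Prelid1 in the same way, and Mxd4 and Mxi1 overlap genes that were at 0 in all libraries.

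**Figure D3:**
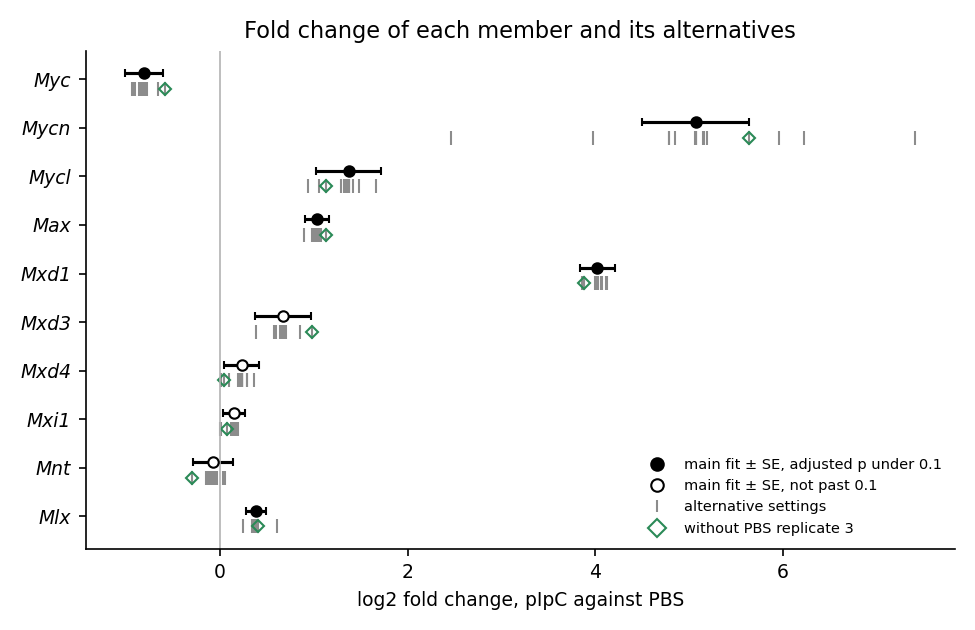
Log2 fold change of each member, pIpC against PBS, from limma with its SE (circles, filled where the adjusted p was under 0.1), above the values under the alternative settings (grey ticks) and without PBS replicate 3 (green diamonds). Mxd1 lies near 4.02 under all of them, Mycn spreads widely with the pseudocount, and Mnt lies on both sides of 0.

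Levels of different members can be compared only per length, here as normalized count per kb of exon. In PBS the order was Myc (1152), Mlx (612), Max (534), Mxi1 (328), Mnt (161), Mxd4 (154), Mxd3 (119), Mxd1 (65.4), Mycl (5.05) and Mycn (0.229). Of these neighbours, Mlx and Max overlapped over the libraries, as did Mnt with Mxd4 and Mxd4 with Mxd3. In the libraries labelled pIpC the order was Max (1088), Mxd1 (1064), Mlx (796), Myc (642), Mxi1 (363), Mxd3 (179), Mxd4 (178), Mnt (150), Mycn (15.2) and Mycl (12.9). Max with Mxd1, Mxd3 with Mxd4, and Mycn with Mycl overlapped there. Myc thus went from rank 1 to rank 4 and Mxd1 from rank 8 to rank 2. With the longest transcript as the length, Mlx and Max changed places in PBS, Mnt and Mxd4 changed places in PBS, and Mxd3 and Mxd4 changed places in pIpC.

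Summed per kb, the antagonists (Mxd1, Mxd3, Mxd4, Mxi1 and Mnt) stood to the MYC genes (Myc, Mycn and Mycl) at 0.870, 0.910 and 0.492 in PBS replicates 1 to 3 and at 2.59, 3.21 and 2.88 in pIpC replicates 1 to 3. On this length the MYC transcripts were the larger sum in the PBS libraries and the antagonists in those labelled pIpC. With the longest transcript as the length the ratio was 1.05, 1.09 and 0.588 in PBS and 3.24, 4.05 and 3.60 in pIpC, so that the antagonists were the larger sum in PBS replicates 1 and 2 as well, while the groups still did not overlap. Mxd1 made up 7.03% to 8.63% of the antagonist sum in PBS and 50.3% to 59.7% in pIpC. With Mxd1 left out, the ratio was 0.458 to 0.832 in PBS and 1.18 to 1.43 in pIpC, still without overlap. The mean ratio was 0.758 in PBS and 2.89 in pIpC per kb of exon, and 0.906 and 3.63 per kb of the longest transcript.

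The level of Max set beside its partners differed between the groups as well. The MYC genes stood to Max at 1.93 to 2.53 in PBS and at 0.599 to 0.645 in pIpC. The antagonists stood to Max at 1.25 to 1.76 in PBS and at 1.67 to 1.93 in pIpC, and the groups overlapped. All MAX partners counted here, MYC genes and antagonists together, came to 3.68 to 3.77 times Max in PBS and to 2.31 to 2.52 times Max in pIpC. With the longest transcript as the length, the MYC genes stood to Max at 1.21 to 1.59 in PBS and at 0.376 to 0.405 in pIpC, and all partners at 2.52 to 2.53 and at 1.72 to 1.90 times Max. These are ratios of RNA levels, given as a description with no test.

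**Figure D4:**
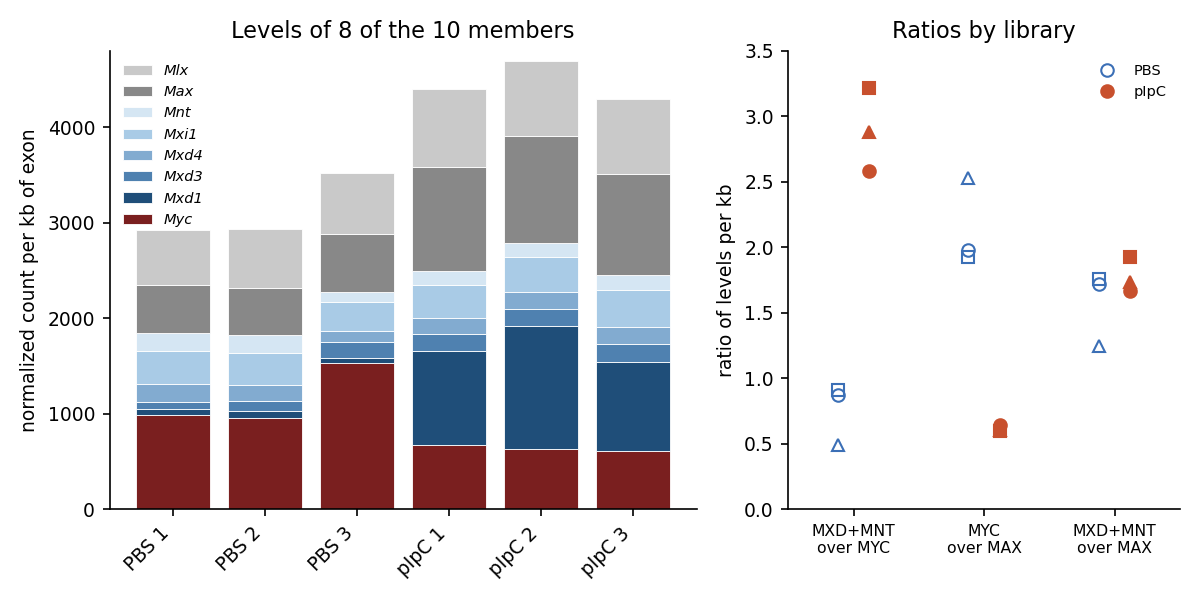
Left, stacked normalized counts per kb of exon for 8 members in each of the 6 libraries (Mycn and Mycl, at most 20.2 per kb, are left out); right, ratios of summed levels per kb in each library, open blue for PBS and filled orange for pIpC. The Mxd1 block grows from 53.0 to 75 per kb in PBS to 925 to 1283 per kb in pIpC, and the ratio of antagonists to MYC goes from 0.492 to 0.910 in PBS to 2.59 to 3.21 in pIpC (with the longest transcript as length, 0.588 to 1.09 and 3.24 to 4.05).

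The genes whose pattern over the 6 libraries was closest to that of Myc, by the root mean square difference of centred log2 values among 10486 genes with a mean of at least 100, were Gss (0.044) and Gatb (0.046), where the median gene was at 0.53. Gss encodes glutathione synthetase. Both were highest in PBS replicate 3, as Myc was. For Mxd1 the closest were Il6st (0.109), Hpse (0.141) and Mrgpra2a (0.169), against a median of 2.04. Il6st encodes the gp130 receptor subunit and Hpse encodes heparanase, and their normalized counts rose from means of 69.1 and 53.4 in PBS to 1183 and 853 in pIpC.

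Genes that MYC is known to induce were more often lower than higher in the libraries labelled pIpC. Of 47 such genes, 46 were tested, and 21 were lower, 3 were higher and 22 did not pass, with a median log2 fold change of -0.43. The share lower among all genes tested was 20.4%. Without PBS replicate 3 the count was 30 lower and 6 higher with a median of -0.32, and without pIpC replicate 2 or 3 it was 8 lower. In those fits the share of all genes tested that was lower was 30.6% without PBS replicate 3, and 12.4% and 12.7% without pIpC replicates 2 and 3. Among the 21 was Odc1, the rate-limiting enzyme of polyamine synthesis, at 4232.6, 5285.7 and 4276.6 in PBS and 2581, 2109.8 and 2156.4 in pIpC (log2 fold change -1.01, adjusted p = 0.0021 from limma). Also lower were Ctps (-0.86), which makes CTP, Bop1 (-0.96) and Nop58 (-0.69) of ribosome production, and Ddx18 (-0.93), all chosen for naming after their values were seen. The lowest was Tert, the telomerase reverse transcriptase, at 32, 52.6 and 27.2 in PBS and 13, 8.17 and 16.4 in pIpC (-1.49).

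The 3 targets that were higher were Ccnd2, Cdc25a and Tfrc. Ccnd2, which encodes cyclin D2, was the highest, at 19, 21.3 and 9.05 in PBS and 1901.3, 1406.9 and 1471.8 in pIpC, a 96.9-fold difference of means (log2 fold change 6.58, SE 0.33, adjusted p = 3.4e-05 from limma). Cdc25a, a phosphatase of the cell cycle, was at 1.25 and Tfrc, the transferrin receptor, at 0.67. Among the 22 that did not pass were Ncl (-0.38), the nucleolar protein nucleolin, and Ldha (0.45), lactate dehydrogenase. Some targets in the list had a high PBS replicate 3, like Myc, such as Srm (1516.7, 2020.3 and 3672.3 in PBS), the spermidine synthase.

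Of 8 genes that MYC is known to repress, 7 were tested, of which 4 were higher, 2 lower and 1 did not pass (median log2 fold change 0.47). The gene left untested by the filter, Cdkn2b, averaged 7.78 in PBS and 0.655 in pIpC, without overlap. The shares over all genes tested were 25.0% higher and 20.4% lower. Cdkn1b, the p27 inhibitor of cyclin-dependent kinases, rose from 1513.3, 1344.2 and 882.7 to 2868.4, 3008.9 and 2790.8 (log2 fold change 1.25, adjusted p = 0.0039 from limma). Ndrg2 rose most, from 5.19, 10.1 and 9.05 to 167, 191 and 203 (4.40). With a mean of 8.12 in PBS, Ndrg2 was tested through its counts in pIpC, which fixed its direction as higher. The myeloid factor Cebpa (0.53) and Ndrg1 (0.47) rose less. Cdkn1a, the p21 inhibitor, went the other way, from 577, 614 and 602 to 163, 197 and 148 (-1.82), as did Pdgfrb (-1.62).

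The targets of the MLX branch were Txnip, Arrdc4 and Pklr. Txnip, a brake on glucose uptake, rose from 2510, 2312.9 and 1867.2 to 4390.5, 4475 and 4091.4 (log2 fold change 0.96, adjusted p = 0.0024 from limma). Pklr, the pyruvate kinase of liver and red cells, had 0 in every PBS library and 247, 156 and 339 in pIpC, at least 82.2-fold higher over the 3-read floor, and the erythroid markers moved with it. Only its counts in pIpC brought Pklr into the test, which fixed its direction as higher. Arrdc4, an arrestin-domain protein, overlapped between the groups (0.11). Of the remaining network factors, Mga and the MONDO gene Mlxip did not pass (-0.20 and 0.67), with PBS replicate 3 the lowest of the 6 libraries in each, and Mlxipl was too low to be tested. Without that library both passed, Mga as lower at -0.65 (adjusted p = 0.000487 from limma) and Mlxip as higher at 0.21 (adjusted p = 0.0313 from limma).

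Genes for the cofactors and for MYC turnover are given by list. Among all genes tested 25.0% were higher and 20.4% lower, and without PBS replicate 3 these shares were 34.5% and 30.6%. Of 13 co-activator genes, 2 were higher (Actl6a at 1.09 and Kat5 at 0.57), 2 lower (Ruvbl1 at -0.77 and Kat2a at -0.50) and 9 did not pass, while without PBS replicate 3 there were 2 higher and 5 lower. Of 11 genes for the co-repressors of MXD proteins and MNT, Sap30 was higher (1.17), Hdac2 was lower (-0.47) and 9 did not pass, whereas without PBS replicate 3 there were 7 higher and 1 lower. Among 14 genes for MYC protein turnover 6 were higher, including the ubiquitin ligase genes Fbxw7 (0.37) and Skp2 (0.62) and the deubiquitinase gene Usp7 (0.68, the highest), and 8 did not pass, while without PBS replicate 3 there were 7 higher and 2 lower. Of 10 markers of cycling cells, 5 were higher, with Mki67 the highest (0.98), 1 was lower (Mcm2 at -0.34) and 4 did not pass, among them the lowest, Pcna (-0.36). Without PBS replicate 3, 7 of the cycling markers were higher and 2 lower.

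**Figure D5:**
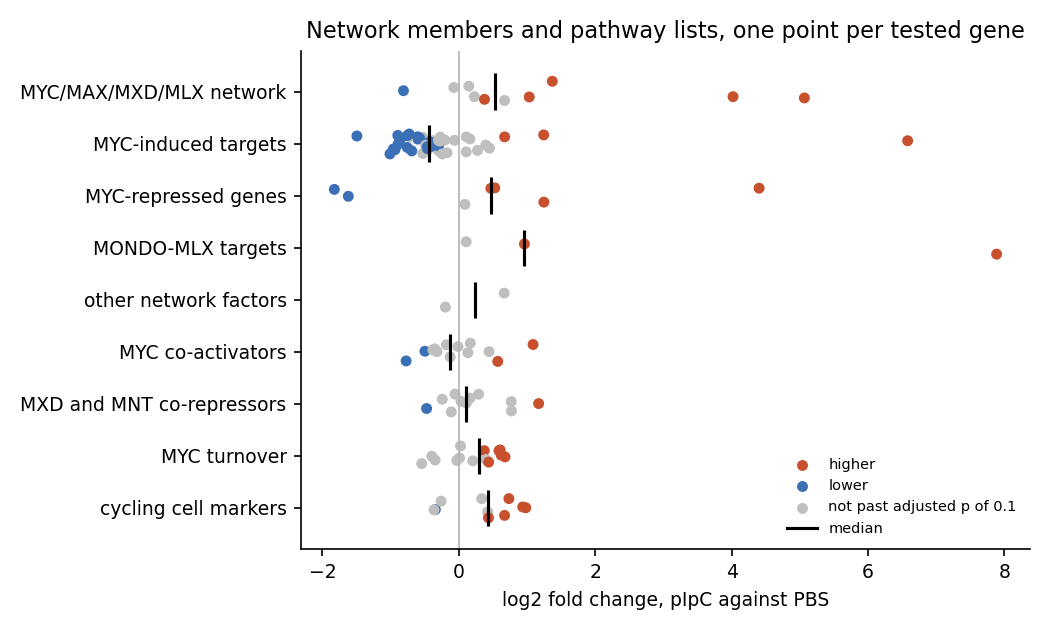
Log2 fold change, pIpC against PBS, of each tested gene of the network and of 8 related lists, orange where higher, blue where lower and grey where the adjusted p from limma was not under 0.1, with a black bar for the median. The MYC-induced targets have a median of -0.43 and the network members one of 0.53, and the points of Mycn and Pklr are fitted values against PBS libraries at or near 0.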

How the data were processed

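The samples were 6 RNA-seq libraries of bone marrow, 3 under the label PBS and 3 under pIpC. The authors deposited 1 table of gene counts, each library divided by its own size factor, and its values were handled as a signal. In every library all values above 0 were multiples of 1 step, to within 0.01 of a read, and whole reads were recovered by dividing by that step. The submitters' processing notes name HISAT2 (version 2.2.1), featureCounts, edgeR and GRCm38, whereas the study's methods name STAR and RSEM in nf-core/rnaseq. The labels state unstranded libraries of GFP+ cells and the study's methods stranded libraries of c-Kit+ cells. No column of values was left out, and gene positions came from GENCODE release M21.

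Values on the log2(normalized count + 1) scale were compared in limma (version 3.58.1, run under R 4.3.3), trend option on, over 15020 genes with a mean of at least 10, with no block and Benjamini-Hochberg adjustment at 0.1. Levels per kb used the union of exons. The members and lists were chosen with earlier results of these data known. Genes named are the members, Brd9, the highest and lowest of each list, and the 3 genes most like Myc and Mxd1; others were named after their values were seen, and 3 genes that this rule or a marker list would name are not reported here. The settings varied were the pseudocount (0.1 or 10), the filter (none, or a mean of 50), quantile and TMM scaling, each library left out, a replicate block, no trend, an adjusted p under 0.05, the longest transcript as length, and a count test on those reads, with edgeR (version 4.0.16) or with DESeq2 (version 1.42.0). Deviations of same-numbered libraries correlated at -0.117, 0.143 and 0.041, so replicate numbers were not taken as pairs. The fits were tested on simulated data.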

Additional observations from a re-analysis of the deposited data

How the results depend on the processing

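For the 10 members, 156 of 168 values under alternative settings kept their direction and side of the threshold, 5 lost the threshold, 4 gained it and 3 turned sign. With a mean of at least 50 the members called higher were 3, as Mycn and Mycl were no longer tested, and 23.5% of all genes tested there were higher. Leaving out 1 library gave 1 to 2 members lower (Mnt joined Myc without PBS replicate 3), 8 to 30 MYC-induced targets lower, and 4650 genes (without pIpC replicate 2) to 9783 genes (without PBS replicate 3) called in all, and the cause was not tested. The share of all genes tested that was lower ran from 12.4% (without pIpC replicate 2) to 30.6% (without PBS replicate 3). At an adjusted p under 0.05, 12 MYC-induced targets were lower, and 5367 of all 15020 genes tested were called in either direction. The share of all genes lower at that threshold was not counted. The log2 fold change of Mnt ran from -0.30 to 0.05 (0.052 and 0.035 without PBS replicates 1 and 2) as a library was left out, and that of Mxi1 was -0.0052 once each library's trend with transcript length was removed, a setting added after the data were seen. There Mxd3 passed at 0.85 (adjusted p = 0.0148 from limma), and under quantile normalization it passed at 0.70 (0.0958). With the replicate block 4 members were higher and 1 lower, Mlx being the member lost (adjusted p = 0.124 from limma), 15 MYC-induced targets were lower and 6095 genes were called. The replicate numbers were not taken as pairs, as not every library correlated best with its own number. With 3 libraries per group, deviations centred within the group cannot exclude a pairing. The mean ratio of antagonists to MYC genes in pIpC was 3.63 with the longest transcript as length. Myc, Mycl, Max and Mxd1 passed in the same direction under every alternative in which they were tested. Mycn did so too, but its counts in pIpC fixed its direction wherever the filter at a mean of 10 was used. Depth limits Mycn and Mycl, at most 65 and 58 reads per library.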

Other observations

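Several genes of the network and its cofactors, chosen after their values were seen, had PBS replicate 3 far below the other 5 libraries. Ncor1, a co-repressor scaffold, was at 6385.3, 6586.3 and 2272.4 in PBS and at 7264.9, 8496.3 and 7738.9 in pIpC. Huwe1, a ubiquitin ligase that acts on MYC, was at 6145.6, 6441.6 and 1885.4 in PBS and at 4921.4, 6323.2 and 5488.7 in pIpC. Mga, a MAX partner, was at 2811.1, 3046.7 and 1143 in PBS and at 1767.6, 2132.3 and 1730.9 in pIpC. Others had PBS replicate 3 highest, such as Nme1, a nucleoside diphosphate kinase and MYC target, at 336.57, 422.08 and 1264.1 in PBS and 402.22, 291.18 and 340.38 in pIpC.

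In RefSeq promoter windows, the E-box CACGTG was present in 26.3% of the 38 MYC-induced targets with a window. Among those called lower it was present in 3 of 15, and among those tested and not called lower in 7 of 22. Over all tested genes with a window it was present in 13.3% of those lower, 9.7% of those higher and 11.9% of those not called. These shares are descriptions without a test.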
